A study of Sus scrofa with 16 samples.

Results

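Chemokines are small secreted proteins that guide leukocytes along concentration gradients through G protein-coupled receptors. Some, such as CXCL14, are made by resting tissue, whereas CCL2, CXCL2 and CXCL8 are classical products of NF-kB signaling in endothelium, glia and macrophages. At the wall of brain vessels, induced chemokines are presented to passing leukocytes and take part in recruiting them. The set examined here was a list of 10 genes, given by name: the ligands CCL2, CCL5, CXCL2, CXCL8, CXCL10, CXCL12, CXCL14, CXCL16 and CX3CL1, and ACKR1, the atypical receptor of venular endothelium. Of these 10, 5 were found by name in the deposited table (CCL2, CCL5, CXCL2, CXCL8 and CXCL14, with 1 entry each) among 22815 distinct entries. CXCL10, CXCL12, CXCL16, CX3CL1 and ACKR1 were not found under these names and were not analysed here.

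The hippocampi came from cesarean-delivered preterm pigs that were fed human donor milk and euthanized about a week later, after necrotizing enterocolitis (NEC) had developed spontaneously in some of them. Si-NEC pigs (siNEC in the labels, 3 females and 3 males) had severe small intestinal lesions with or without colon lesions, Co-NEC pigs (coNEC, 2 females and 3 males) had severe lesions of the colon only, and No NEC pigs (noNEC, 2 females and 3 males) had no macroscopic lesions. Each of the 16 samples is 1 pig, and pigs are named by the number in their title. The diagnosis was not assigned at random, so p-values measure differences between pigs that did or did not become ill.

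Values are the authors' FPKM, that is, fragments scaled by transcript length and by library size, which permit levels of different genes to be set side by side. Read counts were not used here, so the depth per pig is unknown. FPKM summed to 544629 to 645197 in 14 pigs, to 864931 in No NEC pig 230-15 and to 823320 in Si-NEC pig 223-15, and these 2 pigs also had the lowest median rank correlation with the others (0.899 and 0.936). They were the highest pig for 26.3% and 17.5% of the 13590 entries tested. As a check of the tissue label, the summed FPKM of the neuron, astrocyte and oligodendrocyte lists reached at least 1560, 892 and 1370 in every pig. Because the tissue was measured in bulk, fewer cells of a type and less RNA per cell cannot be told apart.

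The 5 chemokine genes found spanned a wide range of levels. CXCL14 was the most abundant, with a median of 114 FPKM over the 16 pigs, which placed its mean at percentile 95 of all tested entries. CCL5 had a median of 27.9 FPKM, CCL2 of 1.23, CXCL2 of 0.215 and CXCL8 of 0.0745. This order held in all 16 pigs for CXCL14 over CCL5 and for CCL2 over CXCL2, and in 15 pigs for CCL5 over CCL2. CXCL2 and CXCL8 were closer, with CXCL2 the higher in 12 of 16 pigs. The 2 abundant genes varied little between pigs and the 3 sparse ones widely. The coefficient of variation was 15.6% for CXCL14 and 24.7% for CCL5, near the median of 22.4% over all tested entries, and 297% for CCL2, 233% for CXCL2 and 322% for CXCL8. These 3 large values rest mainly on Si-NEC pig 246-15, at 70.9, 7.54 and 7.82 FPKM. The means of the other 15 pigs were 1.51, 0.345 and 0.119.

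**Figure D1:**
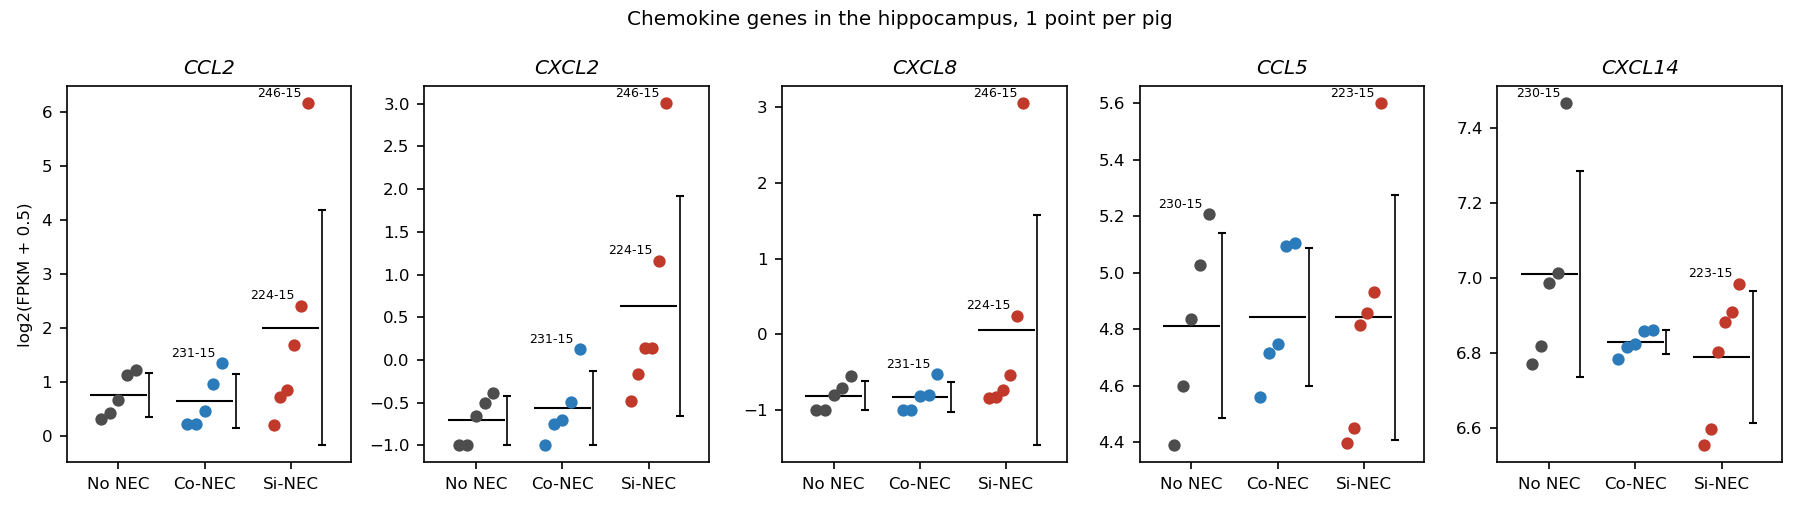
Each panel plots log2(FPKM + 0.5) of 1 chemokine gene, with 1 point per pig, a line at the group mean and a bar of 1 SD (n = 5 No NEC, 5 Co-NEC and 6 Si-NEC pigs); the y axes differ between panels. Si-NEC pig 246-15 stands far above the rest for CCL2, CXCL2 and CXCL8, followed by Si-NEC pig 224-15, while the group ranges of CCL5 and CXCL14 overlap.

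CCL2, CXCL2 and CXCL8 had their highest value in the same Si-NEC pig, 246-15, and their second highest in another Si-NEC pig, 224-15. For CCL2 and CXCL8 the log2 difference between Si-NEC pigs and the other groups was 0.07 to 0.22 without these 2 animals, whereas for CXCL2 the remaining Si-NEC pigs were also higher than most No NEC pigs. Co-NEC and No NEC pigs overlapped for all 3 genes, with log2 fold changes of -0.11 (SE 0.27) for CCL2, 0.15 (SE 0.23) for CXCL2 and -0.02 (SE 0.15) for CXCL8. For CCL5 and CXCL14 the 3 groups overlapped, and neither was highest in 246-15 or 224-15.

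CXCL8 (ENSSSCG00000008953), the interleukin-8 gene, encodes a neutrophil attractant. In the No NEC pigs it was at 0.0750 FPKM in 540-14, 0.180 in 228-15 and 0.111 in 253-15, and listed at 0 in 230-15 and 550-14. In the Co-NEC pigs it was at 0.0658 in 225-15, 0.0739 in 552-14 and 0.192 in 231-15, and listed at 0 in 545-14 and 255-15. The Si-NEC pigs had 0.185 in 223-15, 0.686 in 224-15, 0.0616 in 547-14, 7.82 in 246-15, 0.0966 in 539-14 and 0.0570 in 226-15. The gene was thus under 0.2 FPKM in 14 pigs, and the groups overlapped. Pig 246-15 alone held 87.8% of the summed FPKM of its group. It was at 106 times the median of the other 15 pigs, a ratio met by 10 of 13480 entries (0.0742%). That median was only 0.0739 FPKM, and a median so near 0 makes the ratio large. The mean of CXCL8 without 246-15 was 0.119 FPKM, under the filter of 0.5. A gene this low elsewhere is among those entries only if some pig is far higher, so the share does not measure rarity for such genes. Pig 224-15 was 9.82 times the median of the remaining 14 pigs. The log2 fold change of FPKM + 0.5 was 0.87 (SE 0.62) in Si-NEC versus No NEC and 0.89 (SE 0.61) against Co-NEC pigs, with two-sided exact permutation p of 0.238 and 0.214. Without both high pigs these differences were 0.07 and 0.09 (exact permutation p = 0.579 and 0.532).

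CXCL2 (ENSSSCG00000008959) encodes another neutrophil attractant. In the No NEC pigs it was listed at 0 in 540-14 and 228-15 and was at 0.136 FPKM in 230-15, 0.266 in 253-15 and 0.202 in 550-14. In the Co-NEC pigs it was listed at 0 in 225-15 and was at 0.212 in 545-14, 0.113 in 552-14, 0.0936 in 255-15 and 0.595 in 231-15. The Si-NEC pigs had 0.602 in 223-15, 1.74 in 224-15, 0.219 in 547-14, 7.54 in 246-15, 0.599 in 539-14 and 0.391 in 226-15. Here the higher values were not limited to the pigs 246-15 and 224-15. In the Si-NEC group, 5 of 6 animals exceeded the highest No NEC value and 4 exceeded the highest Co-NEC value, and none was listed at 0. Si-NEC pig 547-14 lay within the range of both other groups, and Co-NEC pig 231-15 lay above 2 of the Si-NEC pigs.

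The median of CXCL2 was 0.601 FPKM in the 6 Si-NEC pigs, 0.136 in the 5 No NEC pigs and 0.113 in the 5 Co-NEC pigs. The log2 fold change was 1.34 (SE 0.53, limma unadjusted p = 0.0259, adjusted p = 1; exact permutation p = 0.0152, two-sided) against No NEC pigs and 1.20 (SE 0.54, unadjusted p = 0.0450, adjusted p = 0.867; exact permutation p = 0.0411) against Co-NEC pigs. Without pigs 246-15 and 224-15 the remaining 4 Si-NEC pigs lay between 0.219 and 0.602 FPKM, and the log2 difference against No NEC pigs was 0.62 (exact permutation p = 0.0317). Against Co-NEC pigs it was 0.47 without those pigs (exact permutation p = 0.0873). In the Co-NEC group the exact permutation p against No NEC pigs was 0.611. Of the 16 values 14 lie under 1 FPKM, and listed zeros, which can be failed estimates, entered the tests as 0. CXCL2 passed the filter of a mean of 0.5 FPKM only through pig 246-15, as its mean without that pig was 0.345. With no filter the limma unadjusted p of CXCL2 was 0.0331 against No NEC and 0.0573 against Co-NEC pigs. Without pigs 223-15 and 230-15 the exact permutation p against No NEC pigs was 0.0556 at a log2 difference of 1.46.

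CCL2 (ENSSSCG00000017723), which encodes the main attractant of monocytes, was above 0 in every pig. In the No NEC pigs it was at 1.09 FPKM in 540-14, 1.70 in 228-15, 0.852 in 230-15, 1.83 in 253-15 and 0.753 in 550-14. In the Co-NEC pigs it was at 0.671 in 255-15, 0.665 in 225-15, 1.46 in 545-14, 0.886 in 552-14 and 2.05 in 231-15. Among the Si-NEC pigs, 223-15 had 1.31, 547-14 had 0.659, 539-14 had 1.14, 226-15 had 2.73, 224-15 had 4.82 and 246-15 had 70.9. Thus 3 of 6 Si-NEC animals exceeded all pigs of the other groups for CCL2 (224-15, 226-15 and 246-15), and the lowest pig of the study was a Si-NEC pig too. Pig 246-15 was at 61.9 times the median of the other 15 pigs and 224-15 at 4.32 times that of the remaining 14. The log2 fold change was 1.25 (SE 0.87, exact permutation p = 0.238) against No NEC and 1.36 (SE 0.87, exact permutation p = 0.184) against Co-NEC pigs. The ratio of the group means against No NEC pigs was 10.9 with all pigs and 1.71 without 246-15, and the log2 difference without both high pigs was 0.11 (exact permutation p = 0.746).

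CCL5 (ENSSSCG00000017705), or RANTES, attracts T cells and monocytes. Its level was 28.2 ± 6.39 FPKM (SD, n = 5) in No NEC, 28.6 ± 4.95 (n = 5) in Co-NEC and 29.3 ± 9.93 (n = 6) in Si-NEC pigs. The No NEC values ran from 20.5 in 253-15 over 23.7 in 550-14, 28.1 in 228-15 and 32.1 in 540-14 to 36.4 in 230-15. The Co-NEC values ran from 23.1 in 255-15 over 25.8 in 545-14, 26.3 in 552-14 and 33.7 in 225-15 to 33.9 in 231-15. The Si-NEC values were 20.6 in 539-14, 21.3 in 547-14, 27.7 in 224-15, 28.5 in 226-15, 30.0 in 246-15 and 48.0 in 223-15. The group ranges overlapped, and pigs 246-15 and 224-15 lay inside those of the other groups, whereas 223-15 exceeded every other pig. The highest pig of the Si-NEC and that of the No NEC group were the pigs 223-15 and 230-15, whose FPKM sums stood apart. The log2 fold changes were 0.03 (SE 0.22) for Si-NEC and 0.03 (SE 0.17) for Co-NEC versus No NEC, with exact permutation p of 0.916 and 0.865. Without pigs 223-15 and 230-15 the Si-NEC difference was -0.02 (exact permutation p = 0.913). Between the Si-NEC and Co-NEC groups the log2 fold change of CCL5 was -0.0023 (SE 0.20, exact permutation p = 0.996).

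CXCL14 (ENSSSCG00000014310), a constitutive chemokine of epithelia that neurons also express, had the smallest coefficient of variation of the 5. The No NEC pigs had 126 FPKM in 540-14, 109 in 228-15, 176 in 230-15, 112 in 253-15 and 129 in 550-14. The 5 Co-NEC pigs lay between 110 in 545-14 and 116 in 552-14, with 113 in 225-15, 112 in 255-15 and 116 in 231-15. The Si-NEC pigs had 126 in 223-15, 93.4 in 224-15, 117 in 547-14, 111 in 246-15, 96.3 in 539-14 and 120 in 226-15. The group ranges overlapped, but the Co-NEC range was narrow, with 3 of 6 Si-NEC animals above and 2 below all of it, and the lowest pig was 224-15. The log2 fold change was -0.22 (SE 0.14, exact permutation p = 0.136) in Si-NEC and -0.18 (SE 0.13, exact permutation p = 0.151) in Co-NEC versus No NEC, and without pigs 223-15 and 230-15 these were -0.15 and -0.07. Against Co-NEC pigs, the Si-NEC value was -0.04 (SE 0.09, exact permutation p = 0.595).

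**Figure D2:**
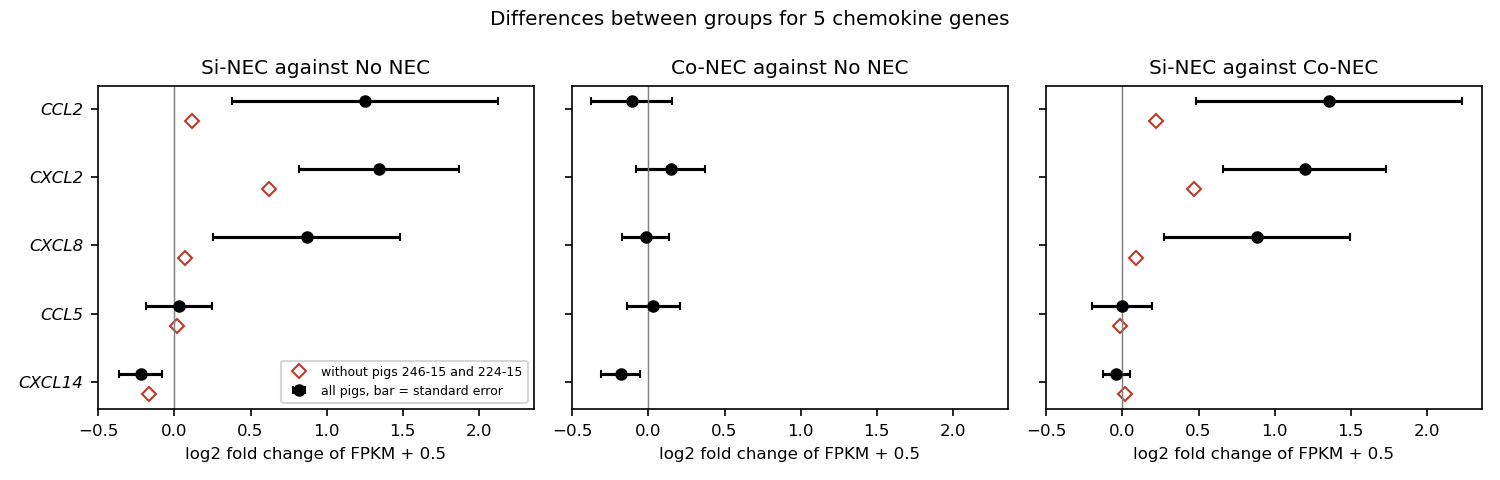
Log2 fold change of FPKM + 0.5 for 5 chemokine genes in each comparison, with the limma standard error for all pigs (filled circles, n = 5 No NEC, 5 Co-NEC and 6 Si-NEC pigs) and the difference without Si-NEC pigs 246-15 and 224-15 (open diamonds, no error drawn). Against No NEC pigs, CCL2 and CXCL8 were at 1.25 and 0.87 with all pigs and at 0.11 and 0.07 without those 2, and CXCL2 was at 1.34 and 0.62.

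In Si-NEC versus No NEC, 0 of the 5 members had an adjusted limma p under 0.2, a threshold met by 0.00736% of all tested entries. The study set 0.2 for the q value of Cuffdiff, which is a different test. By that rule the paper lists CCL2 among its Si-NEC genes. Its qPCR, run on a larger cohort of pigs than the sequencing, found IL8 (CXCL8) higher in Si-NEC pigs. For CINC-3, which it calls CXCL2 in humans, the paper reports a moderate rise of the protein in pooled cerebrospinal fluid of both NEC groups. Protein in that fluid is a different measure from hippocampal RNA. In limma, 1 member (CXCL2) had an unadjusted p under 0.05, in the higher direction. The share of all entries was 1.59% in that direction and 1.02% in the lower direction. In Co-NEC versus No NEC, 0 members had an unadjusted p under 0.05 (background 2.12% higher and 1.32% lower) and 0 passed the adjusted threshold (background 0.00736%). In Si-NEC versus Co-NEC, CXCL2 was again the 1 member with an unadjusted p under 0.05 (background 3.25% higher and 2.4% lower), and 0 passed the adjusted threshold (background 0.0147%). No member had groups that did not overlap in any comparison, which was the case for 0.118% of all entries in the higher and 0.0368% in the lower direction for Si-NEC versus No NEC, for 0.235% and 0.228% for Co-NEC versus No NEC, and for 0.309% and 0.235% for Si-NEC versus Co-NEC. The filter of a mean of 0.5 FPKM bears on these counts. Without pig 246-15 the mean over 15 pigs would be 0.345 FPKM for CXCL2 and 0.119 for CXCL8, so both genes passed the filter only through the group in which they were high. The Si-NEC comparisons share their pigs and are not independent of each other.

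CCL2, CXCL2 and CXCL8 followed each other across pigs. On the log2 scale Pearson's r over 16 pigs was 0.96 for CCL2 with CXCL8 (permutation p = 0.00012, adjusted over 10 pairs 0.0012), 0.92 for CCL2 with CXCL2 (0.00032, adjusted 0.0016) and 0.92 for CXCL2 with CXCL8 (0.00048, adjusted 0.0016). Spearman's rho was lower, at 0.66 (permutation p = 0.0067, adjusted 0.0493), 0.63 (0.00986, adjusted 0.0493) and 0.54 (0.0328, adjusted 0.109). Without pigs 224-15 and 246-15, r was 0.50, 0.45 and 0.37 over 14 pigs (permutation p = 0.0674, 0.105 and 0.195). The high r over 16 pigs thus depends on those 2 pigs. Among the other 14 the coefficients were lower but positive, and so few pigs leave a relation undecided. For CCL5 and CXCL14, r of either with CCL2, CXCL2 or CXCL8 lay between -0.30 and 0.13 (smallest permutation p = 0.196, adjusted 0.313).

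The highest pig of each group was a female for each of these 3 genes, in 9 of 9 cases. These pigs were 246-15 among Si-NEC, 231-15 among Co-NEC, and 253-15 (CCL2, CXCL2) or 228-15 (CXCL8) among No NEC pigs. The cases are not independent, because the same few pigs recur in 3 genes that followed each other. All females had the suffix 15 in their number and all pigs with the suffix 14 were males, so sex was partly tied to that suffix. CXCL2 averaged 3.30 ± 3.72 FPKM (SD, n = 3) in Si-NEC females and, in Si-NEC males, 0.403 ± 0.190 (n = 3). CCL2 in No NEC pigs was at 1.77 ± 0.0909 (n = 2) in females and 0.897 ± 0.171 (n = 3) in males. Not every contrast was this clear. CXCL2 in No NEC pigs was at 0.133 ± 0.188 (n = 2) in females and 0.113 ± 0.103 (n = 3) in males. Co-NEC female 255-15 was at 0.671 FPKM for CCL2, within the range of the Co-NEC males (0.665 to 1.46), and was listed at 0 for CXCL8. The interaction of group and sex did not pass the threshold for any member in limma, and the smallest adjusted p was 0.439, for CCL5 in Si-NEC versus No NEC.

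Further ligands were sought among 34 names, of which 10 were found. Only CCL25 and CCL19, the T cell attractants of gut and lymph node, passed the filter on low values. In limma 0 of these 2 had an unadjusted p under 0.05 in any comparison, against 1.02% to 3.25% of all entries by comparison and direction. CCL25 ranged from 7.22 to 23.1 FPKM and was highest in Si-NEC pig 547-14. Of the 8 further ligands above 0 in at least 1 pig, 4 were highest in pig 246-15, which was the highest pig for 6.91% of all entries tested. CCL19 was at 3.64 FPKM there and at 0.184 to 1.20 in the other pigs, and CCL3L1, an attractant of macrophages and T cells, was at 3.35 there, with 0.760 in No NEC pig 540-14 as the next highest value. AMCF-II, a porcine neutrophil attractant, and CXCL11, an interferon-induced ligand of CXCR3, reached 0.513 and 0.408 FPKM in 246-15. CCL17 and CCL27 had their highest values, 1.05 and 1.90 FPKM, in Co-NEC pig 552-14 and Si-NEC pig 547-14.

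Of 25 receptor names, 16 were found and 7 were tested. ACKR3, the scavenger receptor for CXCL12 and CXCL11, had the smallest p of them. Its level was 14.5 ± 1.80 FPKM (SD, n = 6) in Si-NEC, 11.3 ± 1.68 (n = 5) in Co-NEC and 9.85 ± 2.34 (n = 5) in No NEC pigs. The Si-NEC pigs had 14.9 in 223-15, 12.2 in 224-15, 12.4 in 547-14, 16.5 in 246-15, 15.9 in 539-14 and 15.3 in 226-15. The No NEC pigs ran from 6.78 in 540-14 over 9.03 in 230-15, 9.12 in 550-14 and 11.6 in 228-15 to 12.7 in 253-15, and the Co-NEC pigs from 9.08 in 545-14 over 10.05 in 225-15, 11.8 in 231-15 and 12.1 in 552-14 to 13.3 in 255-15. For ACKR3, 4 of 6 Si-NEC animals exceeded all pigs of the other groups. The log2 fold change was 0.56 (SE 0.16, limma unadjusted p = 0.00397, adjusted p = 1; exact permutation p = 0.00866, two-sided) against No NEC and 0.36 (SE 0.12, unadjusted p = 0.0105, adjusted p = 0.851; exact permutation p = 0.0195) against Co-NEC pigs. Without 246-15 and 224-15 the difference was as large, at 0.57 against No NEC (exact permutation p = 0.0317) and 0.37 against Co-NEC pigs (exact permutation p = 0.0397). Without 223-15 and 230-15 it was 0.53 against No NEC pigs (exact permutation p = 0.0317).

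GPR75, an orphan receptor for which CCL5 was proposed as a ligand, had the highest mean of the receptors (39.1 FPKM). Its log2 fold change was -0.38 for Si-NEC versus Co-NEC (SE 0.17, limma unadjusted p = 0.0483, adjusted p = 0.867; exact permutation p = 0.0649). It was at 8.77 FPKM in 230-15 and 21.4 in 223-15, the lowest pigs for it, and without these 2 pigs the difference was -0.24 (exact permutation p = 0.111). The microglial fractalkine receptor CX3CR1 ranged from 4.25 FPKM in 246-15 to 21.3 in 223-15, both Si-NEC, and 2 of 6 Si-NEC animals lay above and 3 below all Co-NEC pigs. CCR10, a receptor for CCL27, ranged from 3.98 to 8.94 FPKM. CCR1 was highest in 246-15, at 1.21 FPKM. CCR2, CXCR1, CXCR2 and CXCR4, the receptors for CCL2, CXCL8, CXCL2 and CXCL12, were not found under these names and were not analysed here. Of the 7 receptors tested, 1 had an unadjusted limma p under 0.05 in Si-NEC versus No NEC (ACKR3, higher). The share of all entries there was 1.59% higher and 1.02% lower. In Co-NEC versus No NEC it was 0 receptors (all entries 2.12% higher and 1.32% lower). In Si-NEC versus Co-NEC 1 receptor was higher and 2 were lower (all entries 3.25% higher and 2.4% lower).

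**Figure D3:**
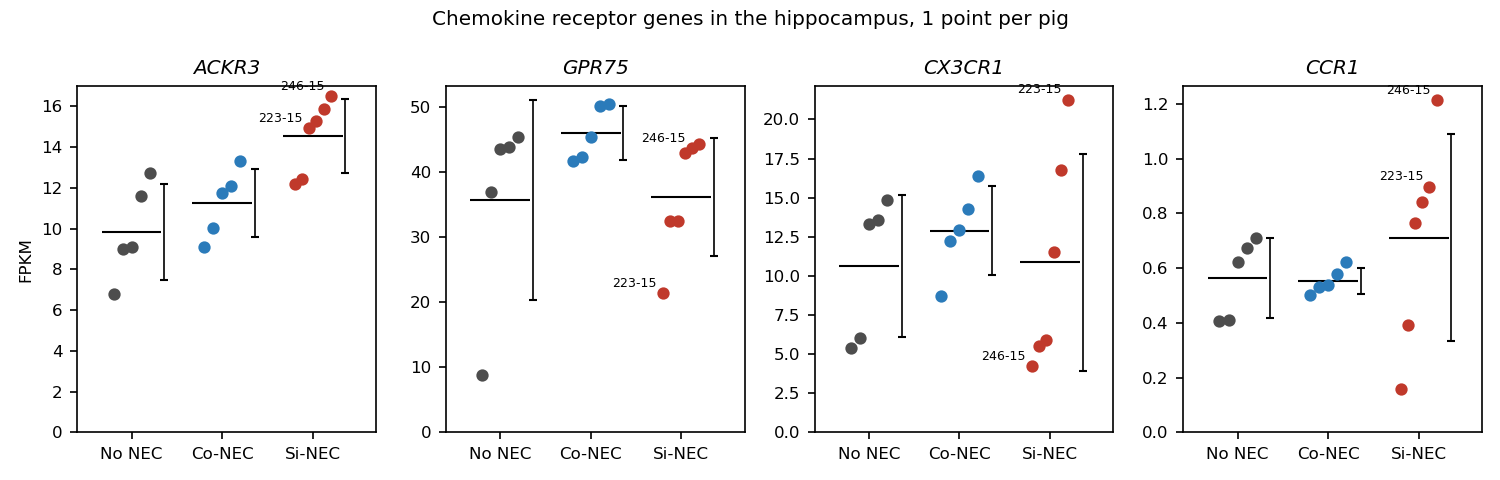
FPKM of 4 chemokine receptor genes, with 1 point per pig, a line at the group mean and a bar of 1 SD (n = 5 No NEC, 5 Co-NEC and 6 Si-NEC pigs); the y axes start at 0. ACKR3 lies between 12.2 and 16.5 FPKM in Si-NEC pigs against 6.78 to 12.7 in No NEC pigs, and CX3CR1 is lowest in pig 246-15, which is highest for ACKR3 and CCR1.

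Genes that process or anchor chemokines (13 names, 10 found, 7 tested) showed 1 entry with an unadjusted limma p under 0.05. It was higher in Co-NEC versus No NEC, where the share of all entries was 2.12% higher and 1.32% lower. ADAM10, the protease that sheds CX3CL1 and CXCL16, was at 27.8 ± 3.94 FPKM (n = 5) in Co-NEC and 21.8 ± 4.54 (n = 5) in No NEC pigs, which gave a log2 fold change of 0.36 (SE 0.16, unadjusted p = 0.0480, adjusted p = 0.812; exact permutation p = 0.0714). The median log2 fold change of the list was -0.03 in that comparison, against 0.01 over all entries.

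Target genes of NF-kB, the pathway that induces CCL2, CXCL2 and CXCL8, were examined under 18 names, with 11 entries tested. IER3 and the chemokines shared their 2 highest pigs. In Si-NEC versus No NEC, 9 of 11 had a positive log2 fold change, with a median of 0.34 against 0.02 over all entries. Of these, 2 had an unadjusted limma p under 0.05 (1.59% of all entries were higher at that p). The adjusted threshold was passed by 0 of the 11 (0.00736% of all entries). IER3, an early stress response gene, was at 11.3 FPKM in 246-15 and 7.08 in 224-15, at 1.59 to 2.50 in the other 4 Si-NEC pigs, and at 0.0929 to 1.76 in No NEC pigs. Its log2 fold change was 1.52 (SE 0.48, unadjusted p = 0.00837, adjusted p = 1; exact permutation p = 0.00866). NFKB1, a subunit of NF-kB itself, has 2 differing entries under 1 identifier and is uncertain. The other entry past an unadjusted p of 0.05 was 1 of these, with a log2 fold change of 0.67 (SE 0.24, unadjusted p = 0.0149, adjusted p = 1). Pig 246-15, the highest pig for 6.91% of all entries tested, was so for 8 of these 11, among them the feedback inhibitors TNFAIP3 (5.99 FPKM, others 0.897 to 1.55) and NFKBIA (33.1 FPKM, others 9.82 to 22.0) and the adhesion molecule ICAM1 (9.46 FPKM, others 1.03 to 5.17). Pig 224-15 was among the highest 2 pigs for 3 of the 11, as were 223-15 and No NEC pig 230-15.

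Interferon-stimulated genes separated these 2 pigs. Of 13 entries tested from 20 names, 12 were highest in 246-15 (6.91% of all entries). Among them were MX1 at 229 FPKM (others 25.2 to 43.3) and RSAD2 at 11.1 (others 0.0340 to 2.42). Without that pig, RSAD2 and IFIH1 would average just under the filter of 0.5 FPKM. Both were tested only because 246-15 was high, so for them its place as the highest pig was partly set by the filter. Pig 224-15 was in the highest 2 for 0 of the 13, with a median rank of 11 of 16. No NEC pig 253-15 was in the highest 2 for 10 of the 13, and of its group it was the highest for CCL2 (1.83 FPKM) and CXCL2 (0.266), with CXCL8 at 0.111. By group, 0 of the 13 had an unadjusted p under 0.05 in limma in any comparison. The share of all entries was 1.02% to 3.25% by comparison and direction. The median log2 fold change of the list in Si-NEC versus No NEC was -0.01.

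**Figure D4:**
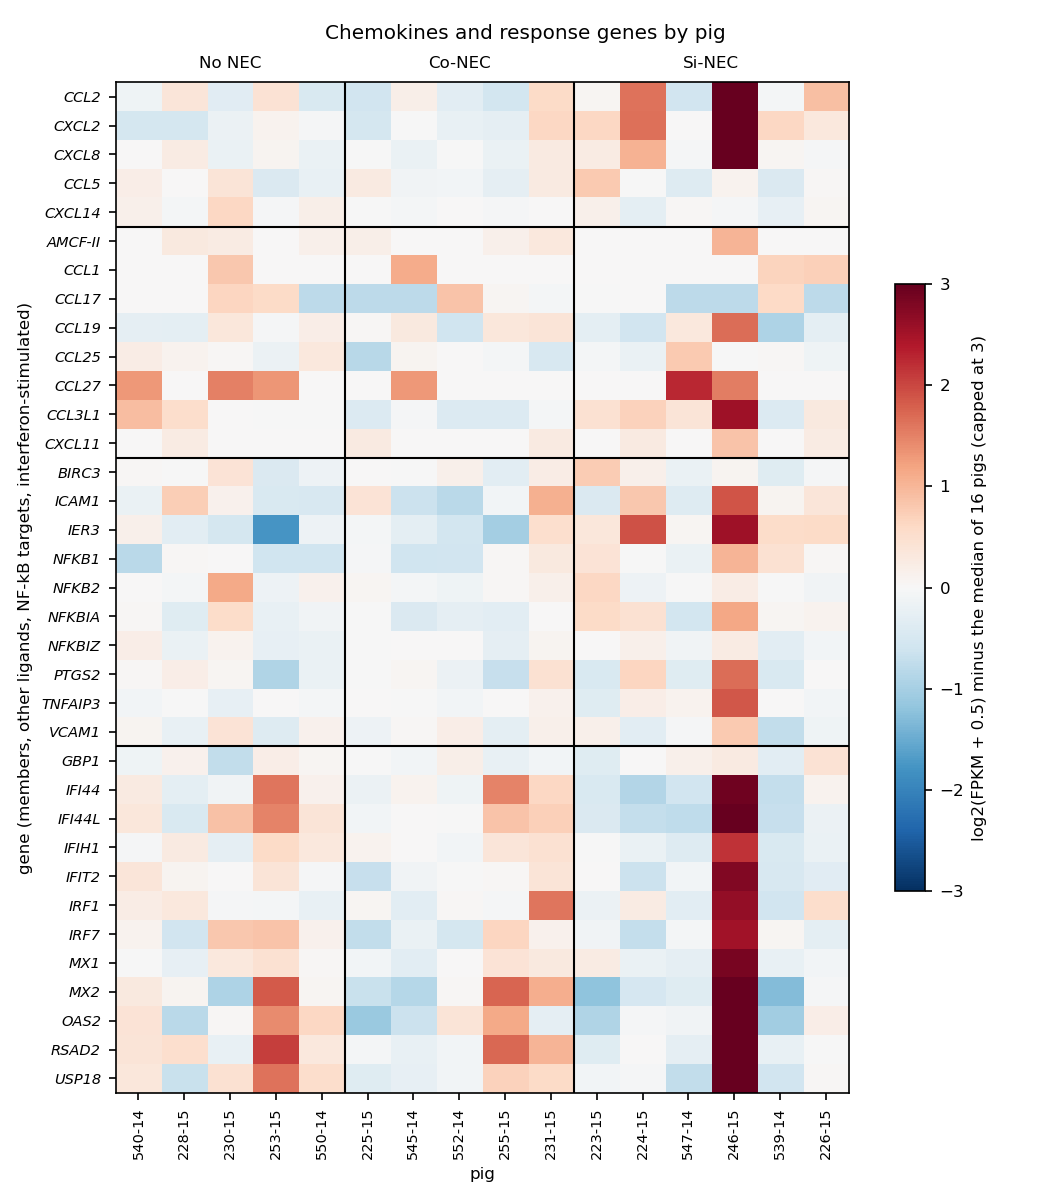
Colors give log2(FPKM + 0.5) minus the median of the 16 pigs for each gene (rows) and pig (columns, grouped by diagnosis), capped at 3; row blocks from the top are the 5 chemokine genes found, further ligands, NF-kB targets (the NFKB1 entry of lower level only) and 12 of the 13 interferon-stimulated entries tested. Pig 246-15 is high for some genes of each block, whereas pig 224-15 is high for CCL2, CXCL2, CXCL8 and IER3 but not for interferon-stimulated genes such as MX1 (27.4 FPKM).

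Pig 246-15 had 40 tested entries at 10 or more times the median of the other pigs, against 0 to 9 entries in each other pig. The 40 include CCL2, CXCL2 and CXCL8. Genes low in most pigs are among the tested entries only if some pig is far higher, which bears on this count. Markers of leukocytes, vessels and choroid plexus were read beside these values. The 4 monocyte markers found of 8 summed to 37.5 FPKM in 246-15, the highest sum, to 23.0 in 224-15 and to 13.5 to 26.4 in the other pigs. In 246-15, CD14 was at 25.4 (others 4.64 to 13.8) and LYZ at 3.81 (others 0 to 2.66), both the highest, whereas VCAN at 8.12 (others 5.84 to 9.78) and MARCO at 0.117 (others 0 to 0.246) lay within the range of the other pigs. The 6 neutrophil markers found of 10 summed to 3.69 in 224-15 and 3.04 in 246-15, the highest sums, and to 1.35 to 3.01 in the others. CSF3R was listed at 0 in all pigs, and MMP8 was at 0.442 FPKM in 224-15, 0.0501 in 539-14 and listed at 0 elsewhere. The 7 endothelial markers found of 12 summed to 47.0 in 224-15, the highest sum, and 40.8 in 246-15 (others 21.5 to 42.4), and the 5 choroid plexus markers found of 8 summed to 28.5 in 246-15 (others 3.07 to 28.0). The microglia list ranked 246-15 at 11 of 16. The part of these markers in the chemokine levels was not tested.

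By a rule of the highest Spearman's rho over the 16 pigs among 9067 named entries, the profile nearest to CXCL8 was that of ITGA5, the alpha chain of the fibronectin receptor (rho 0.94), followed by BCL6B (0.81) and INTS12 (0.79), which all peaked in pig 246-15. For CCL2 these were EMILIN2 (0.84), TBL2 (0.81) and MYO1C (0.79), and for CXCL2 they were RGCC (0.81), IL2RG (0.76) and DAXX (0.76). CCL5 was closest to PMS1 (0.98), PSMD14 (0.94) and LYPLA1 (0.93), whose highest pig was 223-15 or 230-15, and CXCL14 to MED11 (0.85), MRPL46 (0.84) and EMX1 (0.83), which all peaked in 230-15. These correlations are descriptions, as the nearest of many entries over shared libraries.

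In the RefSeq gene order of the Sscrofa11.1 assembly, CXCL8, AMCF-II and PPBP follow each other, with CXCL2 beyond 2 unnamed genes, CCL2 follows CCL1, CCL8 and CCL11, and CCL5 follows CCL14 and CCL16. Chemokine genes in such clusters are duplicated relatives, and reads that match several of them could have been split between entries, which leaves the exact level of CXCL2 and its relatives uncertain.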

How the data were processed

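Total RNA of 16 hippocampi was sequenced from paired-end libraries. Per the labels and the methods, the authors trimmed the reads, aligned them to Sscrofa10.2 with Tophat 2.1.1 and estimated FPKM with Cufflinks 2.2.1, and the deposited FPKM values were used as they stand. How the table was scaled between pigs is not given in the sources used here.

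Of 24594 entries, 1779 identical to another were dropped. Symbols came from a reference table that named 11001 of 21956 gene IDs. Entries averaging 0.5 FPKM or more across the pigs (13590) were fitted per pair of groups with limma 3.58.1 in R 4.3.3 (eBayes with trend, no covariate). Benjamini-Hochberg adjustment ran over all entries. The threshold of 0.2 is the value that the study set for Cuffdiff q values. The values fitted were log2(FPKM + 0.5). Fold changes are on this scale and understate the change of low genes. Genes given with a fold change were also tested by exact permutation (two-sided, difference in mean log2 value), for which the smallest possible p is 0.00216 for 6 against 5 pigs and 0.00794 for 5 against 5. Correlations were tested by permutation. Python 3.11.15, numpy 2.4.6, pandas 2.3.3, scipy 1.17.1 and matplotlib 3.10.9 were used, and the fits were tested on simulated data.

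The members and lists were chosen with earlier results of these data known. Named beside the members are the ligands and receptors of highest mean, up to 3 entries per list and comparison with the smallest unadjusted p under 0.05, and further genes chosen after their values were seen. Alternatives were offsets of 0.1 and 1, other filters, rescaling by the median of ratios, a joint fit of all groups, covariates for sex and for the suffix of the pig number, robust estimation, array weights and leaving out each pig. The results of 2 genes of the lists are not reported here, though the counts over the lists include them.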

Additional observations from a re-analysis of the deposited data

Results flagged for a closer look

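In 4 of the 15 sets of a chemokine gene in a group, the highest pig stood apart on the FPKM scale. Its gap to the nearest other pig was more of the group's range than Dixon's 95% critical value allows. That value gives about 1 set in 20 by chance only for independent sets of normally distributed values. FPKM of these genes are skewed and the sets share pigs, so the flags are a description. The log2 values used elsewhere were not examined in this way. Of these, 3 are the same animal, Si-NEC pig 246-15, with CCL2 at 70.9 FPKM, CXCL2 at 7.54 and CXCL8 at 7.82. The fourth is CCL5 at 48.0 FPKM in Si-NEC pig 223-15, whose FPKM sum of 823320 was also high. None of the 10 sets of Co-NEC and No NEC pigs stood out in this way.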

How the results depend on the processing

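CXCL2 in Si-NEC versus No NEC kept a positive log2 fold change in all 23 settings that gave a value (0.62 to 2.40), with an unadjusted p under 0.05 in 20, and against Co-NEC pigs in all 22 (0.47 to 2.05), with 13. No member had an adjusted p under 0.2 in any setting. A minimum mean of 1 FPKM removed CXCL2 and CXCL8, which left 0 members with an unadjusted p under 0.05 in both Si-NEC comparisons, and against Co-NEC pigs the count was also 0 with an offset of 1, no filter, array weights or without pigs 246-15 and 224-15. Leaving out each pig in turn gave 0 to 1 such members in both comparisons. Against No NEC pigs it was 0 without 540-14, 228-15 or 224-15, where the unadjusted p of CXCL2 was 0.0534, 0.0534 and 0.0519, and against Co-NEC pigs it was 0 without 225-15, 545-14, 552-14, 255-15 or 224-15, where that p was 0.0918, 0.0665, 0.0771, 0.0810 and 0.0850. The count of members without overlap was 0 to 1 in both, and it was CXCL2 without 547-14 or 253-15 against No NEC pigs and without 231-15 against Co-NEC pigs. The share of all entries without overlap is not given for these reduced sets, so this count has no background to be read against. The fits without 1 pig called 1 to 3, 1 to 2 and 1 to 12 entries in Si-NEC against No NEC, Co-NEC against No NEC and Si-NEC versus Co-NEC (3 without 540-14, 2 without 540-14 or 225-15, and 12 without 547-14 or 5 without 255-15). Entries called were 2 with the suffix covariate and 4 with array weights in the first of these, 4 with no filter in the second, and in the third 201 with array weights and 1 with an offset of 0.1, no filter, one fit, either covariate or without both high pigs. The cause was not tested.

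Signs turned only for values near 0. Among the fits without 1 pig, CCL5 ran from -0.122 to 0.128 for Si-NEC versus No NEC, from -0.0738 to 0.131 for Co-NEC versus No NEC and from -0.154 to 0.0867 for Si-NEC versus Co-NEC. For Co-NEC versus No NEC, CCL2 ran from -0.285 to 0.0066, CXCL8 from -0.0923 to 0.0466 and CXCL2 from -0.0279 to 0.255, and for Si-NEC versus Co-NEC CXCL14 ran from -0.0797 to 0.0065. Without pigs 246-15 and 224-15, which was chosen after seeing the data, CXCL14 was 0.0149 in that comparison, and without 223-15 and 230-15 CCL5 was -0.0231 for Si-NEC versus No NEC. No paired analysis was possible because each sample is a different pig and the labels give no pairing. The pigs of the study came from several sows. The labels do not give the litter, so pigs were treated as independent and litter was not tested. The depth per pig is unknown, so values under 1 FPKM carry an unknown counting error.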
